A study of Mus musculus with 60 samples.

Results

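10 genes of the stress response that runs through the transcription factors ATF4 and CHOP were followed in mouse pancreatic islets. They were chosen by name, with earlier results of these data known: Ddit3, Atf3, Atf4, Atf5, Trib3, Ppp1r15a, Chac1, Asns, Ddit4 and Sesn2. All 10 were among the 12544 genes tested, out of 18193 named genes on the array. Islets were laser-captured from frozen pancreas of male pIns-MYCERTAM mice on a CBA-C57BL/6 background, and their RNA was hybridised to Affymetrix arrays. Their beta cells make MYC joined to a modified oestrogen receptor, under the insulin promoter, and 4-hydroxytamoxifen (4OHT) switches this fusion on. MycON mice received 1 mg of 4OHT daily and MycOFF mice peanut oil. Each also received exendin-4, a GLP-1 receptor agonist, at 50 µg/kg or water, from 2 days before 4OHT, and islets were taken at 4, 8, 16, 32 and 72 h. The labels differ on age, with 8 to 12 weeks stated for each sample and 3 months in the protocol. Every mouse carried the fusion and none without it received 4OHT, so an effect of MYC and one of 4OHT itself cannot be told apart in any comparison. In captured islets, fewer cells of a type and less RNA per cell cannot be told apart either.

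Of 60 arrays the submitters kept 52: 13 from MycON islets with water, 12 from MycOFF islets with water, 12 from MycON islets with exendin-4 and 15 from MycOFF islets with exendin-4. Each of the 20 groups held 2 or 3 arrays. Each value is a log2 deviation, relative to the median that the probe set had over the 60 arrays, so levels of different genes cannot be compared and an expressed gene cannot be told from a silent one. The spread of values within an array (SD over probe sets) was 0.284 to 0.949 in the kept arrays. The mean of 9 beta cell markers ran from -1.06 to 1.23 in the kept arrays, and its median was -5.10 in the 8 left out. The labels call the arrays biological replicates but name no animal. The p-values measure the spread between these arrays.

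When unfolded protein builds up in the endoplasmic reticulum, or amino acids run short, kinases phosphorylate the initiation factor eIF2. General translation then slows, while the Atf4 mRNA is translated more. ATF4 switches on genes of amino acid supply and, with prolonged stress, Ddit3, which encodes CHOP. Beta cells make large amounts of proinsulin, and loss of CHOP protects them in several models of diabetes. Because ATF4 is controlled mainly at translation, the amount of its mRNA is not a measure of its activity.

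ATF4 and CHOP can bind a composite C/EBP-ATF response element, and 4 of the 10 genes carry its letters near the start of transcription. The search used TGATGNAA on both strands, in windows from 250 bases before to 50 bases after the start. It matched 3.97% of all 32851 RefSeq promoter windows (assembly GRCm38.p6). The matches are shown because they include Atf3, Chac1 and Asns, each of which passed a test below. Ddit3, which heads the results below, had no match to these letters. Each sequence runs 5′ to 3′ on the gene's own strand, with the matched letters in capitals. The match lies after the start in Trib3 and before it in the others.
Atf3, chr1:191183410-191183469, minus strand: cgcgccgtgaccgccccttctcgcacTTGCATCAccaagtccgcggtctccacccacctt
Chac1, chr2:119351023-119351082, plus strand: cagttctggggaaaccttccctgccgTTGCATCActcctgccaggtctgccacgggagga
Trib3, chr2:152344028-152344057, minus strand: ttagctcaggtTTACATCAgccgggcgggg
Asns, chr6:7693210-7693258, minus strand: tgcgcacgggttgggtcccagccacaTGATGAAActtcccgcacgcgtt
Counted from the start of transcription, the match spans -110 to -103 in Atf3, -193 to -186 in Chac1 and -23 to -16 in Asns. It lies 14 to 21 bases after it in Trib3. Atf3 and Chac1 hold the same 8 letters, the reverse complement of the element.

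A cyclic AMP response element, TGACGTCA, which reads the same on both strands, was searched for because GLP-1 receptor agonists raise cyclic AMP. It matched 1.79% of all windows and that of 1 member, Ppp1r15a, where it spans -12 to -5 and is shown in capitals.
Ppp1r15a, chr7:45526269-45526306, minus strand: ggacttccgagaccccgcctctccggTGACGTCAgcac
The E-box CACGTG, which MYC binds with MAX, matched 7.15% of all windows and none of the 11 windows of the 10 members. The endoplasmic reticulum stress element ERSE (CCAAT and CCACG with a spacer), searched on both strands, matched 0.119% of all windows and no member window. No match says only that these letters are not in these windows.

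With exendin-4, Ddit3 and Chac1 were lower in MycON than in MycOFF islets. Ddit3 fell by 1.14 ± 0.20 on the log2 scale (SE, mean of the 5 times, 12 against 15 arrays), a 2.21-fold difference. Chac1, whose enzyme breaks down glutathione, fell by 1.43 ± 0.44, or 2.70-fold. Both had the same sign at 5 of 5 times, though not by the same amount. At 16 h the group means of Ddit3 were 0.52 in MycON and 0.62 in MycOFF islets. At 4 h those of Chac1 were 0.39 and 0.56. None of the other 8 members passed the test. The test was limma's, and passing meant an adjusted p (Benjamini-Hochberg, over all 12544 genes) below 0.05.

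Ddit3 lay between -0.23 and 2.34, with a median of 0.68, in the 15 MycOFF arrays with exendin-4. In the 12 MycON arrays with exendin-4 it lay between -1.34 and 0.57, with a median of -0.35. The groups overlapped, with 8 of the 15 MycOFF arrays above all MycON arrays. The adjusted p of Ddit3 was 0.000428, and it stayed past the threshold without any 1 of the 52 arrays (adjusted p up to 0.00261).

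Chac1 spread far more widely, from -0.99 to 4.48 with a median of 1.31 in MycOFF islets with exendin-4. In MycON islets with exendin-4 no array was above 0.71 and the lowest was -1.01. Of the 15 MycOFF arrays, 9 were above all 12 MycON arrays. The adjusted p of Chac1 was 0.0445, close to the threshold. Without 1 of 18 arrays the call was lost, with adjusted p between 0.0502 and 0.118. These 18 were 9 of the MycON arrays with exendin-4, 8 of the MycOFF arrays with exendin-4 and replicate 1 of MycOFF water at 4 h. The highest p came without replicate 1 of MycON exendin-4 at 16 h. The call was also lost in a fit of only the arrays compared (adjusted p = 0.113) and with no filter on spread (adjusted p = 0.0721).

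Among the 10 members 2 passed, against 6.19% of all genes in this comparison, and among genes that were lower 2 members passed, against 1.32%. Since the members were chosen with earlier results of these data known, these shares are only a description. The other probe set of Ddit3 on the array varied little (interquartile range 0.122 log2 units, against 0.872 for the one used). It differed by -0.13 ± 0.06 in the same comparison, with an adjusted p of 0.354 over all named probe sets. Over the 52 arrays the 2 probe sets of Ddit3 correlated with r = 0.462. Of 8 beta cell markers none passed in this comparison, and 2 had an unadjusted p under 0.05 in limma. The differences of the 8 ran from -1.37 to 0.33, with a median of -0.21. Of 11 macrophage markers 5 rose and none fell, with a median of 1.01. The part of these cells in the lower Ddit3 and Chac1 was not tested.

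**Figure D1:**
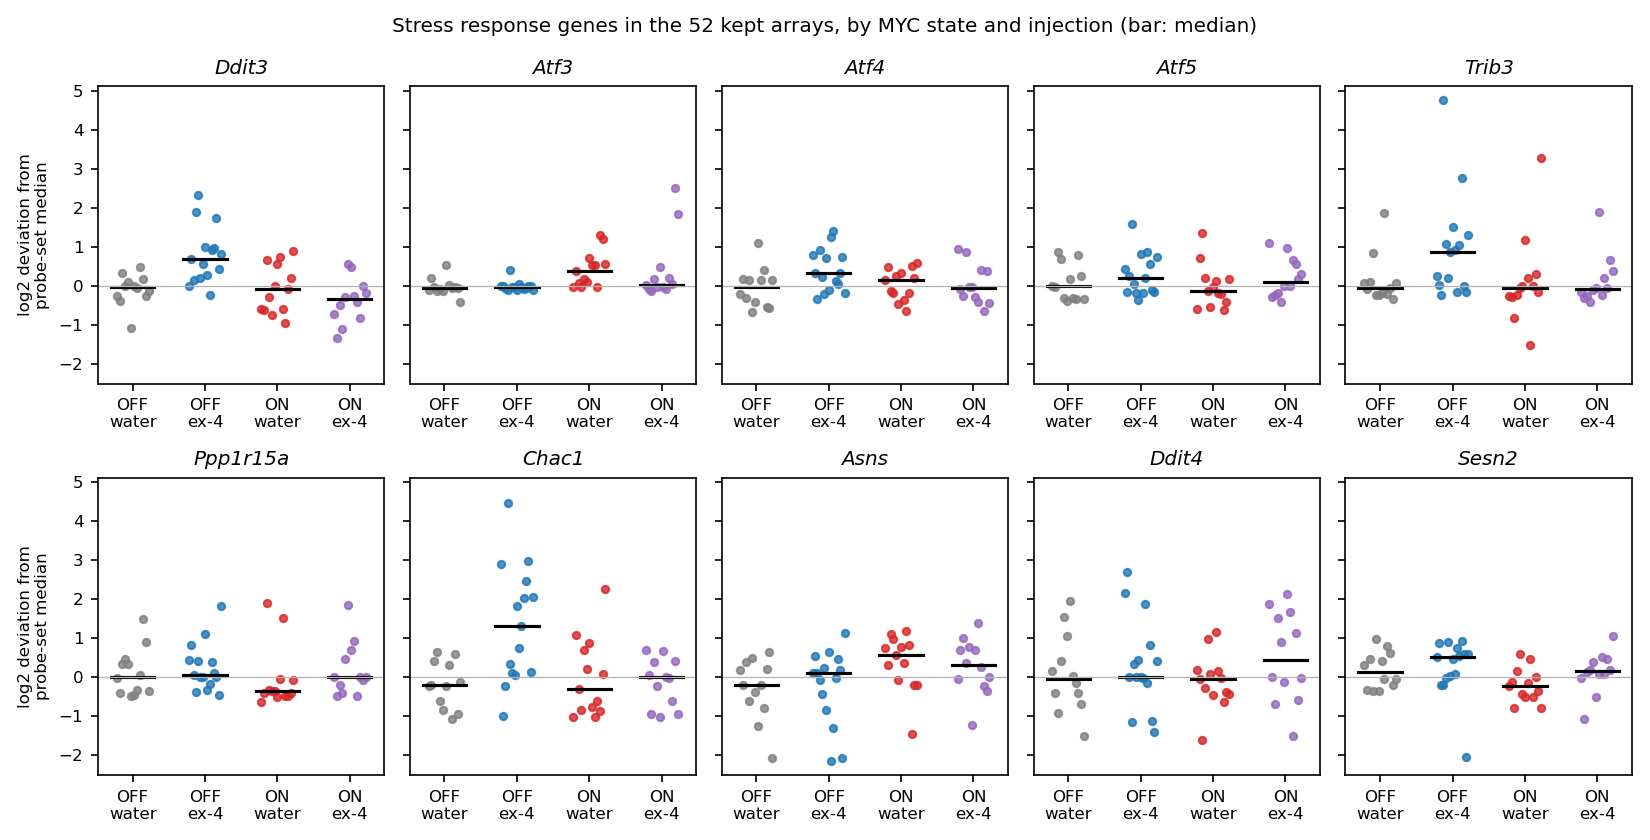
Value of each of the 10 genes in each of the 52 kept arrays (vertical axis, log2 deviation from the median of the probe set) by MYC state and injection (horizontal axis; ex-4 is exendin-4), with 1 point per array and a bar at the median. Ddit3 and Chac1 have their highest medians, 0.68 and 1.31, in MycOFF islets with exendin-4.

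With water, neither of these 2 genes passed for MycON against MycOFF islets. Ddit3 ranged from -0.94 to 0.91 (median -0.07) in the 13 MycON arrays and from -1.08 to 0.48 (median -0.03) in the 12 MycOFF arrays. The difference was 0.05 ± 0.21 (95% interval -0.38 to 0.48; adjusted p = 0.939). This average joins times of opposite sign. At 16 h the group means of Ddit3 with water were 0.64 in MycON and -0.54 in MycOFF islets. At 32 h they were -0.77 and 0.20, so a small average does not mean a small difference at each time. For Chac1 the difference with water was 0.16 ± 0.46, with an interval from -0.77 to 1.09.

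No member passed the test for the MYC effect with water in limma, where 5.97% of all genes did. At an unadjusted p under 0.05 there were 2 members, Atf3 and Asns, and both were higher in MycON islets. Atf3 differed by 0.45 ± 0.16 (adjusted p = 0.0887) and Asns by 0.78 ± 0.33 (adjusted p = 0.176). The call of Atf3 changed with the fit. It passed in a fit of only the arrays compared (adjusted p = 0.0227) and with array weights (0.00883).

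Whether the MYC effect differed between the injections was tested by itself. The effect of MYC on Ddit3 differed between exendin-4 and water by -1.20 ± 0.29, with an unadjusted p of 0.000245 and an adjusted p of 1.00. For Chac1 the difference was -1.59 ± 0.64 (unadjusted p = 0.0173, adjusted p = 1.00). No gene passed this test in limma (0% of 12544, 237 of them at an unadjusted p under 0.05, among them these 2 members). The dependence of the MYC effect on the injection was thus not past the threshold for any member.

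**Figure D2:**
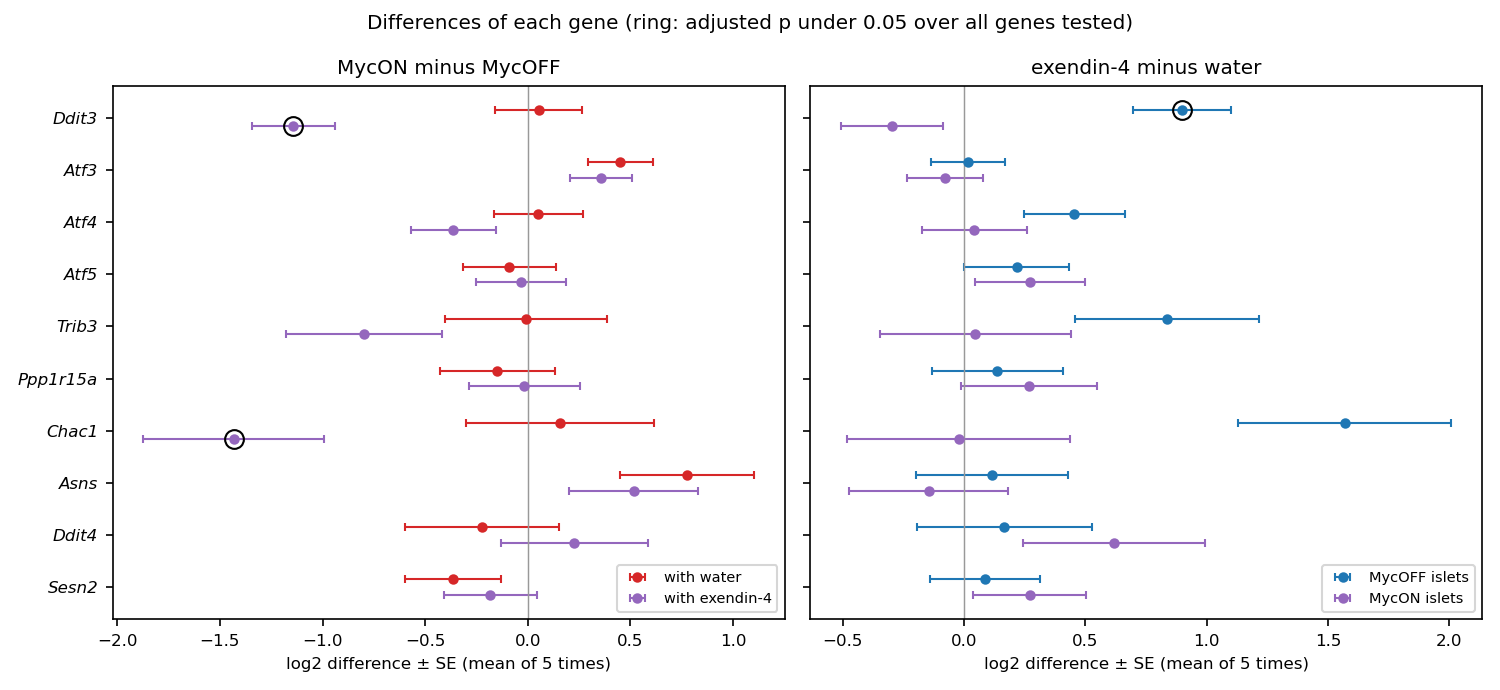
Log2 differences with their standard error (horizontal axis) for each gene, between MycON and MycOFF islets (left) and between exendin-4 and water (right), as means of the 5 times. Rings mark adjusted p under 0.05: Ddit3 and Chac1 in the MYC comparison with exendin-4 (-1.14 and -1.43) and Ddit3 in the exendin-4 comparison in MycOFF islets (0.90).

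In MycOFF islets, where the fusion was not activated, Ddit3 rose with exendin-4. The values with exendin-4 are those given above, with a median of 0.68, and those with water had a median of -0.03. The difference from water was 0.90 ± 0.20 (15 against 12 arrays, 1.86-fold, adjusted p = 0.0396) and was positive at 5 of 5 times. Of the 15 arrays with exendin-4, 9 lay above all 12 arrays with water, of which the highest was 0.48. Ddit3 was 1 of 8 genes, of the 12544 tested, that passed with a rise (0.0638%), while 22 passed with a fall. In both directions 0.239% of genes passed. This comparison and that of MycON with MycOFF islets under exendin-4 share the 15 MycOFF arrays with exendin-4, so they are not independent.

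No gene of the 8 marker lists for other cell types and beta cells passed in this comparison, where 0.239% of all genes did. Of 8 beta cell markers 3 had an unadjusted p under 0.05 in limma. The median difference of the 8 was -0.29, with 2 above 0. Of 6 markers of alpha, delta and PP cells 2 had such a p, and the median of the 6 was -0.31, with none above 0. The part of these cells in the rise of Ddit3 was not tested. The rise of Ddit3 was near the threshold. It was lost without 1 of 17 arrays, 8 MycOFF arrays with exendin-4 and 9 with water, with adjusted p from 0.0512 to 0.159. The highest p came without replicate 2 of MycOFF water at 16 h, which has the lowest Ddit3 value of its group, -1.08, and there the difference was 0.79. With no filter on spread the adjusted p of Ddit3 was 0.0602, in a fit of only the arrays compared it was 0.186, and with all 60 arrays it was 0.215. Its other probe set differed by 0.12 ± 0.06 (adjusted p = 0.744).

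The estimates of all 10 members were above 0 in this comparison, with a median of 0.19, where 44.7% of all genes were above 0 and their median was -0.03. With single arrays left out, the estimates of 4 of the 10 went below 0 in some fit, to -0.05 for Atf3, -0.16 for Asns, -0.05 for Sesn2 and -0.0001 for Ppp1r15a. Chac1 had the largest estimate, 1.57 ± 0.44 (unadjusted p = 0.00109, adjusted p = 0.157), and 9 of its 15 arrays with exendin-4 were above all 12 with water. Trib3, a pseudokinase that ATF4 and CHOP induce and that restrains them, was at 0.84 ± 0.38 (adjusted p = 0.579). Atf4 itself was at 0.45 ± 0.21 (adjusted p = 0.586).

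One array carried the highest values of several members. Replicate 1 of MycOFF exendin-4 at 8 h had Chac1 at 4.48, Trib3 at 4.78 and Atf5 at 1.60, each the highest of the 52 arrays. Its 2 companions had Chac1 at 0.35 and 0.12 and Trib3 at 1.08 and 0.20. Without this array the exendin-4 difference in MycOFF islets was 1.29 for Chac1, 0.56 for Trib3 and 0.86 for Ddit3 (adjusted p = 0.0721), and the MYC difference with exendin-4 was -1.15 for Chac1 (adjusted p = 0.0853).

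In MycON islets none of the 10 members passed for exendin-4 against water in limma, where 0.0717% of all genes did, and none had an unadjusted p under 0.05. Ddit3 was at -0.30 ± 0.21 (95% interval -0.73 to 0.13) and Chac1 at -0.02 ± 0.46 (-0.95 to 0.91). The largest estimate was that of Ddit4, an inhibitor of the growth kinase mTORC1, at 0.62 ± 0.38 (adjusted p = 0.846), positive at 5 of 5 times.

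**Figure D3:**
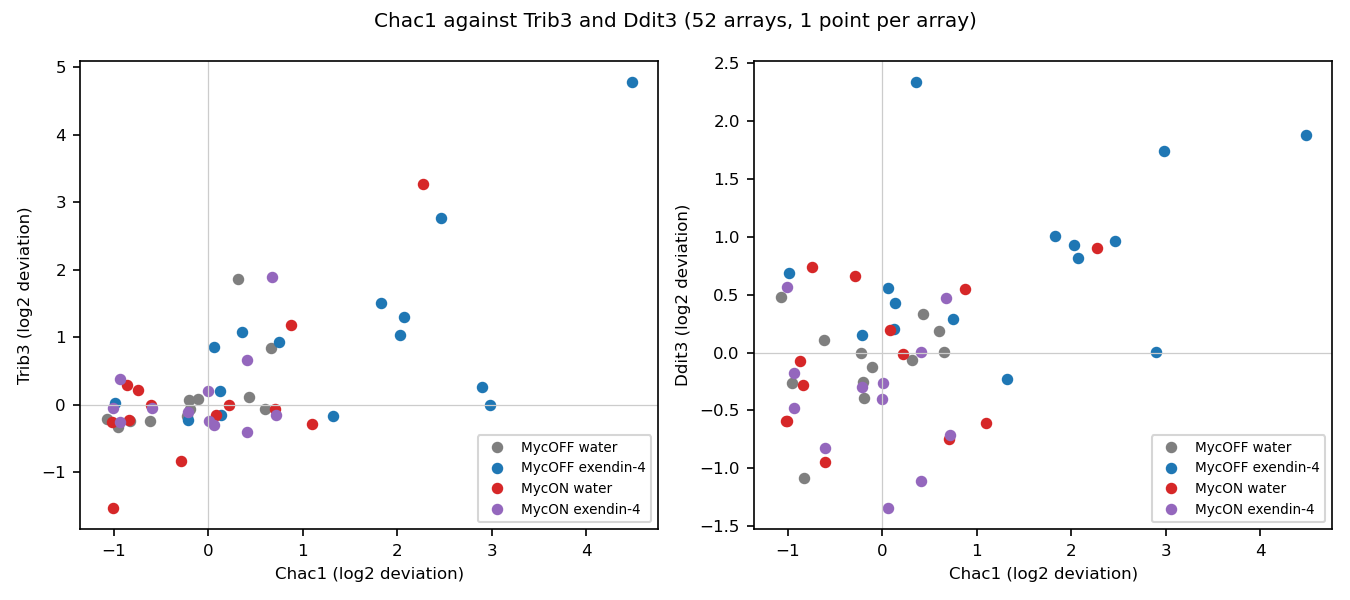
Chac1 (horizontal axis) against Trib3 (left) and Ddit3 (right), both as log2 deviations, with 1 point for each of the 52 arrays, coloured by treatment. The array with Chac1 at 4.48 and Trib3 at 4.78 is replicate 1 of MycOFF exendin-4 at 8 h.

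Over the 52 arrays Chac1 went most closely with Trib3, with Pearson's r = 0.690 and Spearman's rho = 0.536, and the r of deviations from the group means was 0.691. These coefficients are descriptions, since the arrays share groups and each pair of genes shares its arrays. Without the 2 arrays farthest from the median of Chac1, r was 0.632. Ddit3 correlated with Trib3 at r = 0.582 and with Chac1 at 0.511, but within groups at 0.305 and 0.247. Ddit4 and Sesn2, an inhibitor of mTORC1 like it, were at 0.421. On the probe sets used, Atf4 ran against Asns, an ATF4 target, at r = -0.553. The other probe sets of Atf4 followed the one used at only r = 0.232 and 0.432, and their correlation with Asns was not computed. Atf3 had r between -0.146 and 0.078 with the other members.

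The 5 genes most like Chac1 over the 52 arrays were Trib3 (r = 0.690), Gm17767 (0.640), Gad1 (0.634), Ppp2r3a (0.622) and Degs2 (0.619). Rank correlations were 0.536, 0.341, 0.529, 0.517 and 0.346 in that order, lower in each case. For Ddit3 they were Mras (0.631), Stx5a (0.604), Flot2 (0.602), Plk3 (0.599) and Golgb1 (0.592), and none of the members was among these 5. Their rank correlations with Ddit3 lay between 0.552 and 0.623. The r of deviations from the group means was 0.341 to 0.478 for these 5 genes, and 0.555 to 0.691 for the 5 of Chac1.

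Averaged over both injections, 3 members passed for MYC, where 16.3% of all genes did. Ddit3 fell by 0.54 ± 0.15 (25 against 27 arrays, adjusted p = 0.00816), Atf3 rose by 0.40 ± 0.11 (adjusted p = 0.00862) and Asns rose by 0.65 ± 0.23 (adjusted p = 0.0461). On its other probe set Ddit3 did not pass, at -0.10 ± 0.04 (adjusted p = 0.200). Among genes that rose it was 2 members against 10.5% of all genes, and among genes that fell 1 member against 5.83%. Of 8 beta cell markers tested, 3 fell in this comparison and none rose, and of 11 macrophage markers 7 rose and none fell. Their part in the differences of the members was not tested. With all 60 arrays Atf3 did not pass (0.49, adjusted p = 0.0592). The average of Ddit3 joins a difference of -1.14 with exendin-4 and one of 0.05 with water.

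Atf3 encodes a stress-induced repressor and activator of the same basic leucine zipper family, which ATF4 switches on. Its values in MycOFF islets ran from -0.11 to 0.42 with exendin-4 and from -0.41 to 0.54 with water. In MycON islets they reached 1.31 with water (median 0.38) and 2.51 with exendin-4 (median 0.02). The differences by time were 0.06, 0.05, 0.34, 0.20 and 1.37 at 4, 8, 16, 32 and 72 h.

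At 72 h Atf3 rose by 1.37 ± 0.24 with MYC (2.59-fold, adjusted p = 0.000681), as 1.20% of all genes did and as none of the other 9 members did. The 3 MycON arrays with water held 1.31, 1.20 and 0.56, and the 2 MycOFF arrays with water -0.05 and -0.41. With exendin-4 the MycON arrays held 0.04, 2.51 and 1.83, and the MycOFF arrays 0.00, 0.01 and -0.11. All 6 MycON arrays were above all 5 MycOFF arrays, replicate 1 of MycON exendin-4 by little. How many of all genes separated in this way was not counted. The call of Atf3 held without any 1 of the 52 arrays. It was lost in a fit of only the arrays of 72 h (adjusted p = 0.456) and with all 60 arrays (0.88, adjusted p = 1.00). Whether the MYC effect on Atf3 changed with time was tested over the 5 times and was not past the threshold (limma's F test, adjusted p = 0.0707), where 1.67% of genes passed.

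Markers of macrophages were also higher in MycON islets at 72 h. Of 11 such genes 6 passed with a rise and none with a fall, with a median difference of 1.69. Their mean was -0.16 to 3.22 in the 6 MycON arrays and -0.50 to 0.69 in the 5 MycOFF arrays. The median of this mean was 2.16 in the 6 MycON arrays. The MycON arrays with the lowest Atf3 of each injection were replicate 1 with exendin-4 (0.04) and replicate 3 with water (0.56). Their marker means were 2.58 and -0.16. Of 8 stromal markers 1 passed with a rise. The part of other cells in the Atf3 difference was not tested.

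**Figure D4:**
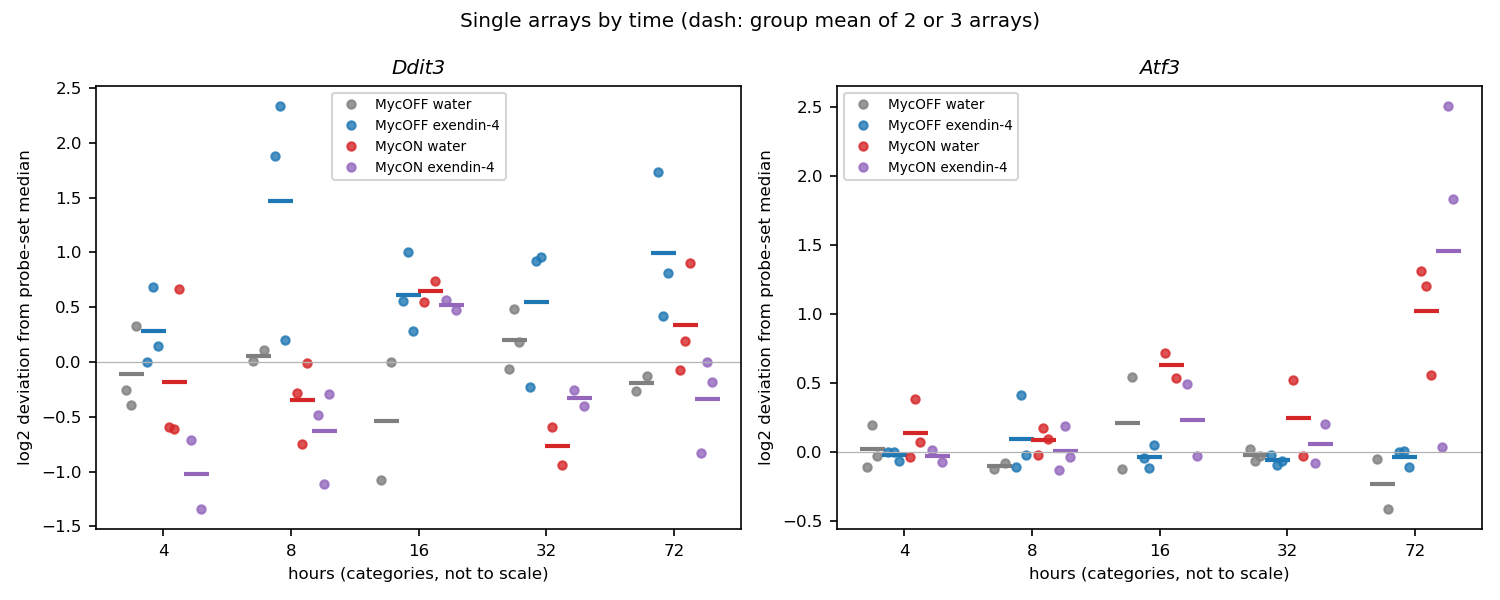
Ddit3 (left) and Atf3 (right) in single arrays (vertical axis, log2 deviation) at 4, 8, 16, 32 and 72 h (horizontal axis, evenly spaced), coloured by treatment, with a dash at each group mean. Atf3 reaches 0.72 at most before 72 h and 2.51 in the MycON arrays of 72 h, and Ddit3 is highest in MycOFF islets with exendin-4 at 8 h, at 1.88 and 2.34.

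Ddit3 passed at 8 h, with a fall of 1.25 ± 0.32 (6 against 5 arrays, adjusted p = 0.0162), where 0.965% of all genes fell and 4.14% changed. In MycOFF islets at 8 h it was at 1.88, 2.34 and 0.20 with exendin-4 and at 0.01 and 0.11 with water. In MycON islets it was at -0.48, -1.11 and -0.29 with exendin-4 and at -0.28, -0.75 and -0.01 with water. All 6 MycON arrays were below all 5 MycOFF arrays, and how many of all genes separated in this way was not counted. The call was lost without replicate 1 or 2 of MycOFF exendin-4 at 8 h (-1.15 and -1.04, adjusted p = 0.0569 and 0.0628). It was also lost without replicate 1 or 3 of MycOFF water at 8 h (adjusted p = 0.0692 and 0.0706) and in a fit of only the arrays of 8 h (0.121). The other probe set of Ddit3 did not pass at 8 h (-0.20, adjusted p = 0.475). Beta cell markers were lower at 8 h too, 1 of 8 past the threshold, with a median difference of -1.09 and a range from -2.10 to -0.40. Their part in the fall of Ddit3 was not tested.

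At the other times the MYC difference of Ddit3, over both injections, was -0.69 at 4 h, 0.55 at 16 h, -0.93 at 32 h and -0.40 at 72 h, all short of the threshold. Ddit3 did pass at 32 h with quantile normalization (-1.19, adjusted p = 0.0303), with array weights (-1.12, adjusted p = 0.00539) and with all 60 arrays (-1.33, adjusted p just under the threshold). The sign at 16 h was opposite. In MycOFF water at 16 h the 2 arrays held -1.08 and 0.00, and in MycON water 0.55 and 0.74. At 4, 16 and 32 h no member passed in limma (2, 0 and 2 at an unadjusted p under 0.05), where 2.45%, 2.42% and 3.46% of all genes did. The time test of the MYC effect gave Ddit3 an adjusted p of 0.170, and the other 8 members apart from Atf3 between 0.471 and 0.894. In MycOFF islets no member changed over time, where 0.00797% of genes, 1 gene, did (543 at an unadjusted p under 0.05, no member among them).

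**Figure D5:**
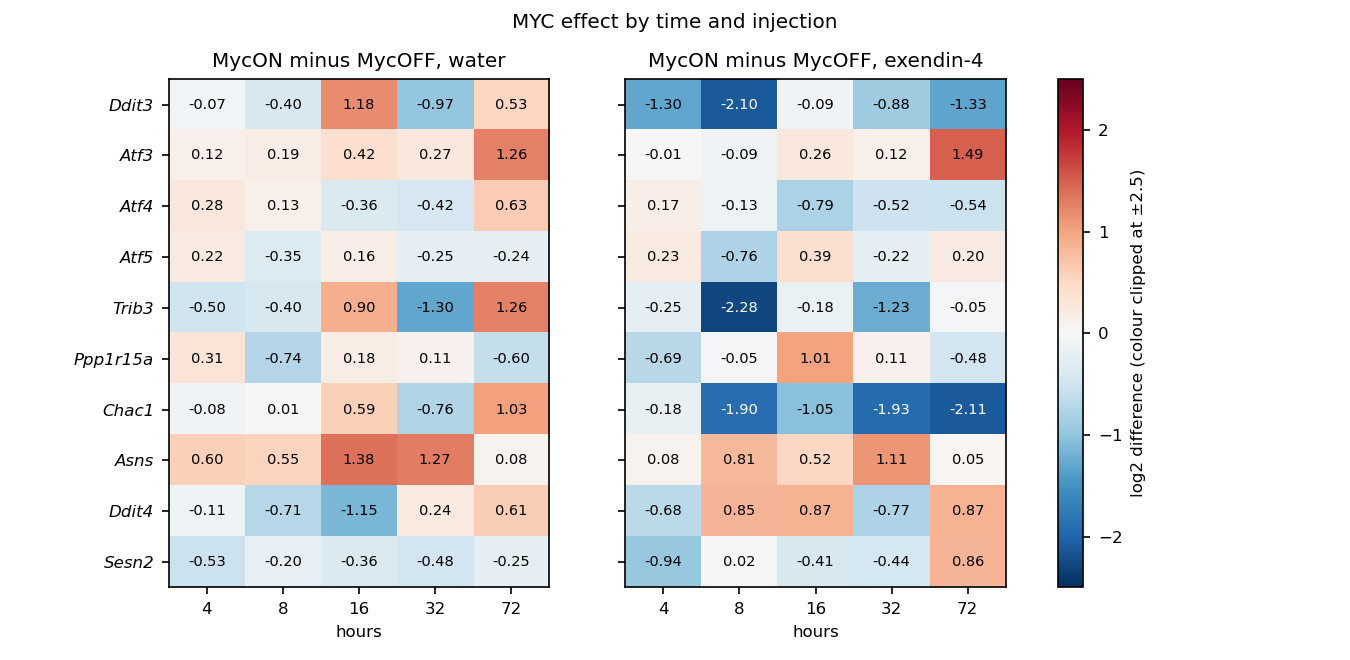
Log2 difference between MycON and MycOFF islets for each gene (rows) at each time (columns, hours), with water (left) and with exendin-4 (right). Red is higher in MycON islets and blue lower; Chac1 with exendin-4 is at -0.18 at 4 h and between -1.05 and -2.11 later.

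Asns, which encodes asparagine synthetase, was the only effector that rose with MYC over both injections. It lay between -1.46 and 1.19 (median 0.57) in MycON islets with water, and between -2.07 and 0.66 (median -0.20) in MycOFF islets with water. With exendin-4 the medians were 0.33 and 0.12. The difference was positive at 5 of 5 times, at most 1.19 at 32 h and 0.07 at 72 h. Its second probe set followed it closely over the arrays (r = 0.849) and differed by 0.58 ± 0.13 (adjusted p = 0.00364). That probe set also passed for MYC with water, at 0.74 ± 0.19 (adjusted p = 0.0274). Over both injections its difference was above 0 at 4, 8, 16 and 32 h but was -0.29 ± 0.29 at 72 h.

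The call of Asns on the first probe set was near the threshold. It was lost without 1 of 33 arrays, with adjusted p up to 0.116 without replicate 3 of MycOFF water at 72 h, where Asns was at -2.07. It was also lost without the 2 kept arrays of widest spread, replicate 3 of MycOFF exendin-4 at 16 h and replicate 2 at 72 h. They held Asns at -2.16 and -2.08, and the difference without them was 0.49 (adjusted p = 0.0782). With no filter on spread the adjusted p of Asns was 0.0715, and with all 60 arrays it was 0.270.

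Atf4 did not pass on the probe set used, with -0.36 ± 0.21 for MYC with exendin-4 (adjusted p = 0.364) and 0.05 ± 0.22 with water. Its other 2 probe sets correlated with the one used at r = 0.232 and 0.432. One of them did pass, with a fall of 0.62 ± 0.16 for MYC with exendin-4 (adjusted p = 0.0295) and of 0.36 ± 0.12 over both injections (adjusted p = 0.0464). On that probe set 14 of the 15 MycOFF arrays with exendin-4 were above 0, with a median of 0.52, against a median of -0.08 in MycON islets with exendin-4. The remaining one differed by -0.14 ± 0.15. Atf5, a relative of Atf4 that is also controlled at translation, was at -0.03 ± 0.22 with exendin-4 and -0.09 ± 0.23 with water.

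The feedback genes did not pass in any of the comparisons. Ppp1r15a encodes GADD34, which brings a phosphatase to eIF2 and ends the block of translation. It differed for MYC by -0.02 ± 0.27 with exendin-4 and -0.15 ± 0.28 with water, and the 4 treatments each had 1 or 2 arrays above 1. Trib3 differed for MYC by -0.80 ± 0.38 with exendin-4 (adjusted p = 0.245), below 0 at 5 of 5 times, and by -0.01 ± 0.39 with water. Its second probe set was at -0.32 ± 0.22 and 0.14 ± 0.23 and followed it over the arrays with r = 0.867.

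Ddit4 had the widest interquartile range of the members, 1.34 log2 units, and ran from -1.60 to 2.71 over the kept arrays without passing in any comparison. The highest value, 2.71, and one of 2.16 were in MycOFF exendin-4 at 4 h, where the third array was at 0.01. Its MYC difference was 0.23 ± 0.36 with exendin-4 and -0.22 ± 0.38 with water. Sesn2 was at -0.18 ± 0.23 and -0.37 ± 0.23, the latter below 0 at 5 of 5 times (adjusted p = 0.455). Without the 2 kept arrays of widest spread Sesn2 passed over both injections, at -0.37 (adjusted p = 0.0482). Its second probe set, which correlated with the one used at r = 0.187, was at 0.04 ± 0.11 over both injections.

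Of 109 other genes listed for the pathway 97 were tested. Over both injections 14 of the 97 rose and 4 fell, where 10.5% and 5.83% of all genes did, and their median difference was 0.09 against -0.03 over all genes. Psat1, whose enzyme makes phosphoserine, rose by 2.61 ± 0.22, and it passed at each of the 5 times, the only one of the 97 to do so.

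Of 12 amino acid synthesis genes 4 rose and none fell. Beside Psat1, Phgdh, which begins serine synthesis, rose by 0.75 ± 0.16 and Got1, an aspartate aminotransferase, by 0.91 ± 0.23. Of 8 amino acid transporters 1 rose, Slc7a1, which takes up arginine and lysine, by 0.78 ± 0.12. Of 19 genes for tRNA charging and export 4 rose, among them Farsb (1.00 ± 0.22), Eprs (0.65 ± 0.16) and Xpot (0.58 ± 0.17). Slc1a4, a transporter of alanine and serine, fell with MYC under exendin-4 by 0.89 ± 0.22 (adjusted p = 0.0104).

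Of 14 genes of eIF2, its kinases, exchange factor and phosphatase 3 rose, the exchange factor subunits Eif2b4 (0.44 ± 0.13), Eif2b1 (0.95 ± 0.30) and Eif2b5 (0.83 ± 0.28). Of 15 genes that CHOP or ATF4 control in secretion and cell death, Eif4ebp1, an inhibitor of cap-dependent translation, rose by 0.68 ± 0.18. Vegfa, which encodes a blood vessel growth factor, fell by 0.72 ± 0.21. Of 7 partner factors 1 rose, Nfe2l2, the antioxidant regulator NRF2, by 0.78 ± 0.21.

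Of 22 genes of the XBP1 and ATF6 arms, which work beside the ATF4 arm, 3 fell and none rose. Xbp1 fell by 0.79 ± 0.15, the chaperone gene Dnajb9 by 0.66 ± 0.16 and Ern1, which encodes the sensor IRE1, by 0.41 ± 0.14. Under exendin-4 Xbp1 fell by 0.93 ± 0.20 and Dnajb9 by 0.77 ± 0.22. With water Xbp1 was at -0.65 ± 0.21 (adjusted p = 0.0602).

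By injection, 5 of the 97 pathway genes rose with water and none fell (Psat1, Phgdh, Shmt2, Slc7a1 and Eif4ebp1), where 4.21% of all genes rose and 1.76% fell. With exendin-4, 2 rose (Psat1 and Farsb) and 3 fell (Xbp1, Dnajb9 and Slc1a4), where 4.87% of all genes rose and 1.32% fell. None of the 97 passed for exendin-4 against water in limma in MycOFF islets (13 at an unadjusted p under 0.05). Of all genes 0.0638% rose and 0.175% fell there. In MycON islets none of the 97 passed either (8 at an unadjusted p under 0.05), where 0.0239% of all genes rose and 0.0478% fell. Of all genes, 1.71% rose at 4 h, 3.17% at 8 h, 2.18% at 16 h, 2.47% at 32 h and 1.20% at 72 h. At these times 0.741%, 0.965%, 0.239%, 0.989% and 0.231% of all genes fell, in that order. By time, genes that rose at 4 h included the transporters Slc7a1 (2.82-fold, adjusted p = 0.000617), Slc38a2 (1.08 ± 0.24) and Slc6a9 (0.78 ± 0.21) and the cysteine synthesis gene Cth (0.77 ± 0.21). Nfil3, a leucine zipper repressor, fell at 4 h by 1.08 ± 0.24. At 8 h Psat1 rose by 3.46 ± 0.47, Phgdh by 1.67 ± 0.36 and Eif4ebp1 by 1.40 ± 0.38. At 16 h 3 of the 97 rose, Psat1 (2.24 ± 0.52), the phosphatase gene Ppp1ca (1.78 ± 0.50) and Jun, a partner of ATF3 (1.75 ± 0.40), and Xbp1 fell by 1.36 ± 0.35. At 32 h 4 rose and none fell, Psat1 (3.04 ± 0.50), Phgdh (1.39 ± 0.37), Got1 (1.89 ± 0.52) and Slc7a1 (1.23 ± 0.28). At 72 h Psat1 rose by 2.43 ± 0.47 and Slc1a4 fell by 1.59 ± 0.34, and none of the other 95 passed.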

How the data were processed

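The deposited values are log2 expression values per probe set, and the submitters' processing notes name GCRMA and MAS5 without a role or version. The deposited log2 values are centred on each probe set's median over all 60 arrays. The log base is inferred from their range (-12.3 to 12.8, where natural logs of a 16-bit scanner's values end at 11.1). Of 45101 probe sets, 34945 carry 1 gene symbol, 932 several, 9160 none and 64 are controls. Each gene was read from its probe set of widest interquartile range over the 52 kept arrays. Centred values give no level to filter on, so a gene entered the test if its range reached 0.118 log2 units, the 40th percentile over named probe sets. Differences were fitted with limma 3.58.1 (R 4.3.3) as 20 group means, averaged over times, with Benjamini-Hochberg adjustment over 12544 genes. The scripts were tested on simulated data. Alternatives covered the arrays, filter, normalization, probe set, weights, block and each left-out array. The number of arrays per group, 2 or 3, limits precision.

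Named were all 10 members with their other probe sets, and from each pathway list at most 3 genes past the threshold per comparison by smallest p. The 5 genes most like Ddit3 and Chac1 by Pearson's r were also named. The members and lists were chosen with earlier results of these data known. The 8 arrays left out by the submitters enter only where stated. No pair of arrays held identical values. Promoter sequences are RefSeq's, and all 10 members matched by symbol.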

Additional observations from a re-analysis of the deposited data

Results flagged for a closer look

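The 8 arrays that the submitters left out hold 3 member values above every kept array. Atf3 was at 2.72 in replicate 2 of MycOFF water at 72 h and at 2.77 in replicate 3 of MycON exendin-4 at 32 h, where the highest kept array was at 2.51. Ddit4 was at 2.74 in replicate 3 of MycON exendin-4 at 4 h, where the highest kept array was at 2.71. The left-out arrays also had a median of -5.10 for the mean of 9 beta cell markers. Means of lymphoid markers reached 6.01 in them, and those of skin and muscle markers 10.3. The part of other tissue in their member values was not tested. Single kept arrays were not tested against their companions, since each group held 2 or 3.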

How the results depend on the processing

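No member's difference that passed the threshold, as reported or under an alternative, changed sign. Estimates short of it did change sign, such as Asns at 72 h, from -0.61 to 0.75 with single arrays left out. With all 60 arrays the count of genes past the threshold was 178 for MYC with water (749 as reported), 1079 for both injections (2047), 6 for exendin-4 in MycOFF islets (30) and 3 in MycON islets (9). By time it was 87, 203, 46, 138 and 8 at 4, 8, 16, 32 and 72 h (307, 519, 303, 434 and 180), 14 for the time of the MYC effect (209) and 0 in MycOFF islets over time (1). Members past it were then 1 for both injections (3), 0 for exendin-4 in MycOFF islets (1), 1 at 32 h (0) and 0 at 72 h (1). Quantile normalization gave 1188 for MYC with water, 49 and 17 for exendin-4 in MycOFF and MycON islets, 576, 835 and 1108 at 4, 8 and 32 h, 352 for the time of the MYC effect, 2 for time in MycOFF islets, and 1 member at 32 h. Array weights gave 1175 for MYC with exendin-4, 41 for exendin-4 in MycON islets, 596, 1066 and 1528 at 4, 8 and 32 h, 408 and 3 for the time tests. Members were then 1 for MYC with water, 2 at 32 h and 1 for the time of the MYC effect. Fits of only the arrays compared gave 11 for exendin-4 in MycOFF islets, 329, 6 and 6 at 8, 16 and 72 h and 0 for time in MycOFF islets. Members were then 1 for MYC with water, 1 with exendin-4, and 0 for exendin-4 in MycOFF islets, at 8 h and at 72 h. Without a filter there were 17 genes and 0 members for exendin-4 in MycOFF islets, and 1 member for MYC with exendin-4. The filter at the 60th percentile gave 0 members at 72 h, as Atf3 was not tested there. The mean over probe sets gave 50 genes for exendin-4 in MycOFF islets, 320 genes and 1 member for the time of the MYC effect. Without the 2 kept arrays of widest spread, chosen after seeing the data, it was 201 at 16 h, 364 at 72 h and 0 for time in MycOFF islets. Causes were not tested.

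Leaving out each of the 52 arrays gave 498 to 848 genes for MYC with water, 507 to 918 with exendin-4, 1726 to 2242 for both, 12 to 46 for exendin-4 in MycOFF and 3 to 20 in MycON islets, and 0 to 2 for the interaction. By time it was 187 to 358, 210 to 604, 68 to 719, 184 to 507 and 62 to 345, then 156 to 307 for the time of the MYC effect and 0 to 14 in MycOFF islets. Members ranged over 0 to 1, 1 to 2, 2 to 3, 0 to 1 and 0 to 0 in the first 5 comparisons, 0 to 1 at 8 h, 1 to 1 at 72 h and 0 to 1 for the time of the MYC effect.

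The replicate numbers did not pair the arrays: of 22 pairs 5 correlated above 0.1, with a median of -0.0861. With the replicate number as a block, 1 member passed for MYC with exendin-4, Chac1 being at -1.43 (adjusted p = 0.0513), and 14 genes passed for exendin-4 in MycON islets. The centred values hold no signal over background, and many groups have 2 arrays.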

Other observations

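In the 8 arrays that the submitters left out, Sesn2 lay between -3.88 and -2.16, below every kept array (lowest -2.05) in 8 of 8. Asns was below every kept array in 4 of the 8, Atf4 and Chac1 in 2 each, and Ddit3 and Ddit4 in 1 each. The part of other tissue in these values was not tested.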
